A study of Rattus norvegicus with 20 samples.

Results

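The genes described here were 8 cathepsins (Ctsa, Ctsb, Ctsc, Ctsd, Ctsh, Ctsk, Ctss and Ctsz) and the cystatin Cst3, which encodes cystatin C. They were taken by symbol from an expression table of 30443 genes, where each of the 9 symbols had 1 row, and all 9 were among the 15210 genes that reached 1 FPKM (read fragments scaled to the length of the transcript and the size of the library) in at least 1 library. RNA had been sequenced from 5 regions of 4 adult female WT Long-Evans rats aged about 6 to 8 months, giving 20 libraries in all. Every rat, controls included, carried a hemicontusion of 0.7 mm displacement at cervical level 4 and, from 2 weeks later, an electrode array in the motor cortex opposite the injury. In 2 stimulated rats current was passed through the electrodes at 10 Hz and 80% of the movement threshold for 5 hours a day over about 1 week, and 2 control rats were connected without current. No uninjured or unimplanted group entered these comparisons. Region 1 was subcortical white matter under the electrodes, region 2 the matching white matter of the other hemisphere, region 3 the spinal cord rostral to the injury, region 4 the lesion and region 5 the cord caudal to it. Each region therefore had 2 control and 2 stimulated libraries, and each animal contributed 1 library to every region. The FPKM table holds no read counts, so no counting error was computed for its values.

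Cathepsins are the peptidases of the lysosome, the acid compartment in which cells break down proteins taken up from outside or delivered from within. Most are cysteine peptidases, which are made as inactive precursors, carried to the lysosome by mannose 6-phosphate receptors and matured there at low pH. Phagocytes, among them microglia and the macrophages that clear myelin after injury, are known for a high lysosomal content and can also release cathepsins. Cystatin C is a small secreted protein that binds the active site of cysteine cathepsins and blocks them, and in the central nervous system it is made largely by astrocytes, choroid plexus and myeloid cells.

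The promoters of 8 of the 9 genes were matched by symbol in RefSeq (build GRCr8), all but that of Ctsb. The 250 bases before the annotated start are printed for 3 of them, because these hold letters of factors tied to lysosomal or myeloid transcription. Capitals mark those letters on either strand. Ctsd lies at chr1:206968822-206969071, minus strand, Ctsc at chr1:151440799-151441048, plus strand and Ctss at chr2:185775146-185775395, plus strand.
Ctsd: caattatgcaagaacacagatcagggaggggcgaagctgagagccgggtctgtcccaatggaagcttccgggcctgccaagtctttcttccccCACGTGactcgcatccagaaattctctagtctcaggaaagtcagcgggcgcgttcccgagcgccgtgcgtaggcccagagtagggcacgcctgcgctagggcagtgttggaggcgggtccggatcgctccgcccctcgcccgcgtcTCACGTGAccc
Ctsc: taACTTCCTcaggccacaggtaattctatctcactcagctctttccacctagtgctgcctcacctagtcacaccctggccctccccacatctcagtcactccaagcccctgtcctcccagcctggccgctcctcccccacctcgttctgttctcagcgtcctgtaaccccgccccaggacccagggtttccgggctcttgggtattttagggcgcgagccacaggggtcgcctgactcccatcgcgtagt
Ctss: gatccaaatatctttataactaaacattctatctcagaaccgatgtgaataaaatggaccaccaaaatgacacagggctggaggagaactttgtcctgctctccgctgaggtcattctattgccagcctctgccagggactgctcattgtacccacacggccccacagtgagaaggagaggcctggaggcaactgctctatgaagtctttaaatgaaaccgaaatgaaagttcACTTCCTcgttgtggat

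In the Ctsd promoter the capitals mark TCACGTGA, the core of the CLEAR element that the lysosomal regulator TFEB binds, at -11 to -4, counting back from -1 at the base before the start. That match overlaps the CACGTG at -10 to -5, and a second CACGTG lies at -157 to -152. TCACGTGA was found in the promoter of 1 of the 8 members and in 0.743% of the 27457 rat promoters of this length, and CACGTG in 1 of 8 and 5.795%. In Ctsc and Ctss the capitals mark AGGAAGT, a site of the myeloid factor PU.1, read on the opposite strand, at -248 to -242 in Ctsc and at -17 to -11 in Ctss. It was found in 2 of 8 members and in 6.985% of all promoters. The AP-1 letters TGANTCA were found in 0 of 8 (6.363% of all promoters), the GC box GGGCGG in 5 of 8 (32.39%), CCAAT in 3 of 8 (34.29%) and TATAAA in 1 of 8 (13.09%). These matches are letters in a window, not measured binding. Ctsk and Ctss lie side by side on the chromosome, parted by a single annotated coding gene.

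The library of stimulated animal 2 stood apart from the other 3 libraries in several regions. In region 2 its Ctsz level was 51.6 FPKM, against 4.57 to 5.55 in the other 3 animals, and its Ctss level 247 FPKM against 78.5 to 101. In region 1 it had the highest Ctsc, at 31.9 FPKM, and the highest Ctsk, at 54.9 FPKM. In region 4 it had the lowest level of all 8 cathepsins. The summed FPKM of 9 myeloid markers (Aif1, Itgam, Csf1r, Ptprc, Tyrobp, Fcer1g, C1qa, C1qb and C1qc) moved the same way in this animal. It was 887 in region 2 against 70.9 to 99.2 in the others, 866 in region 1 against 247 to 458, and 426 in region 4 against 565 to 961. Calls that change without this animal are given beside the results. The tissue blocks labelled white matter had lower sums of 6 oligodendrocyte markers, 1512 to 2943 FPKM in region 1 and 708 to 1391 in region 2, than the cord libraries, 7403 to 10779 in all. Summed levels of 6 neuronal markers, 817 to 1559 FPKM in the white matter and 887 to 1615 in the cord, were of like size.

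RNA of the inhibitor was far more abundant than that of the peptidases, and protein was not measured. Cst3 ranked first among the 9 genes in 20 of 20 libraries, with a median of 2078 FPKM, and its regional mean stood above those of at least 99.97% of the 15210 genes. Ctsb, a cysteine peptidase that cuts within proteins and trims dipeptides from their ends, ranked second in 20 of 20 libraries with a median of 344 FPKM. Ctsd, the main aspartic peptidase of the lysosome, and Ctss, a cysteine peptidase of antigen-presenting cells that stays active near neutral pH, followed, Ctsd ranking 3 in 11 libraries and Ctss in the other 9. Ctsa, a serine carboxypeptidase that also protects beta-galactosidase and neuraminidase, had a median of 63.4 FPKM. Ctsh, mainly an aminopeptidase, had 44.9 FPKM, and Ctsz, a carboxypeptidase, 28.2 FPKM. Ctsk, the collagen-cutting cathepsin best known from osteoclasts, had 8.65 FPKM and Ctsc, which activates the serine proteases of leukocyte granules, 7.56 FPKM. The least abundant cathepsins spanned the widest range. The highest library held 24.6 times the lowest for Ctsc and 21.3 times for Ctsk. The span was 14.4 times for Ctsz, 11.6 for Ctsd, 4.62 for Ctsa and 3.38 for Cst3. For Ctsc and Ctsk the highest library was region 1 of stimulated animal 2, at 31.9 and 54.9 FPKM. The next highest was region 4 of control animal 1, at 17.9 and 44.5 FPKM.

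**Figure D1:**
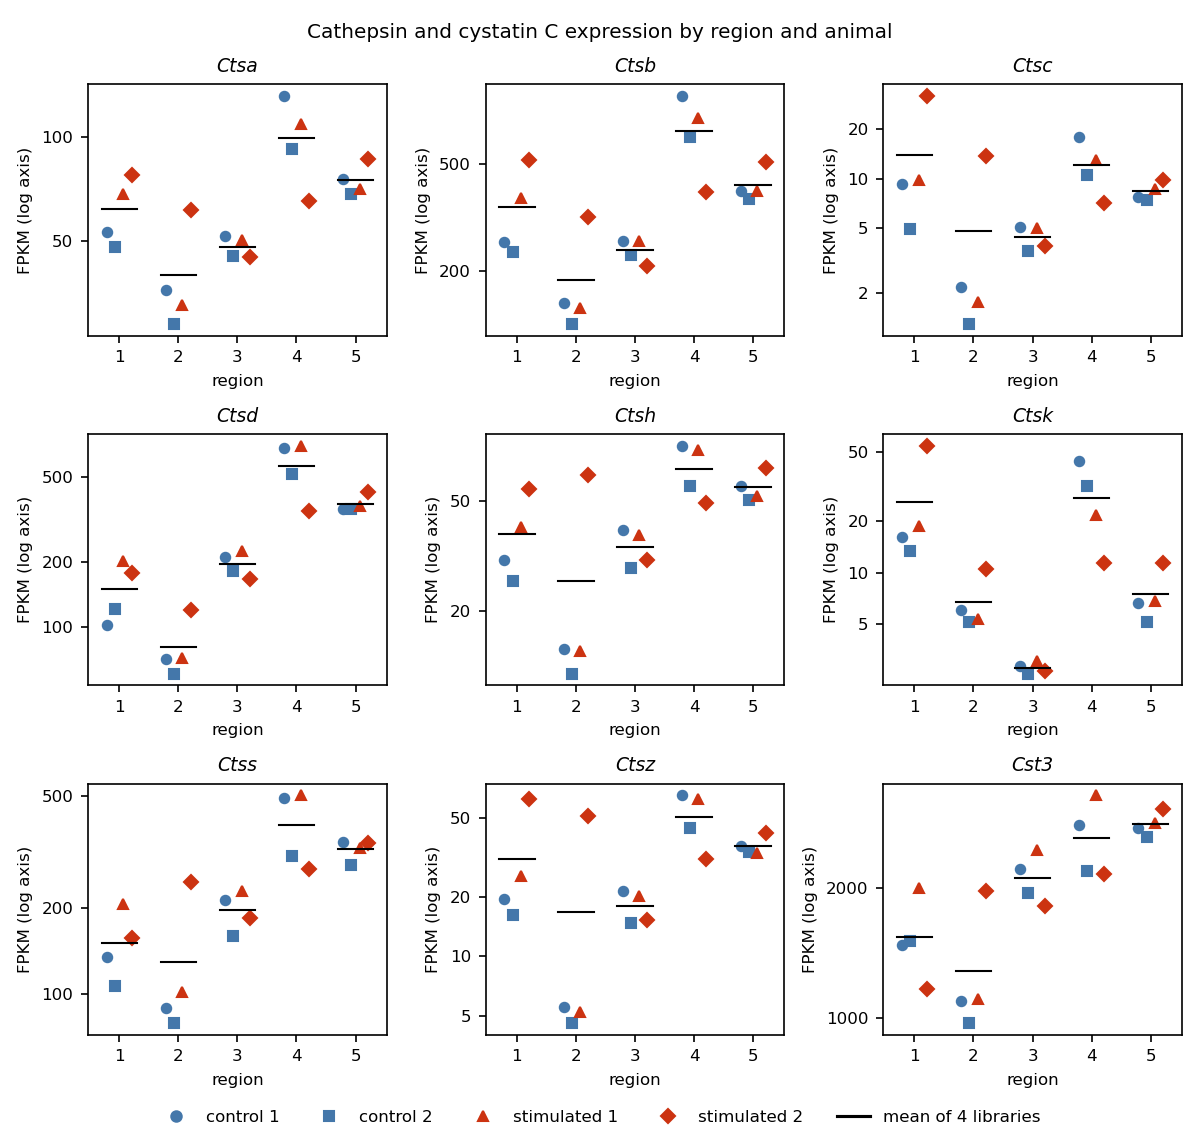
FPKM (log axis) of each gene by region, with 1 point per library and a line at the mean over the 4 animals; circles and squares are the control animals, triangles and diamonds the stimulated animals. The 4 animals lie close together in region 3 and higher and wider apart in region 4, with Ctsk rising from 2.80 to 27.4 FPKM on average, and the diamond of stimulated animal 2 lies apart in region 2.

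The contrasts between regions came from 1 model and share libraries, so they are not independent of each other. The first comparison set the lesion against the cord rostral to it. All 8 cathepsins were higher in the lesion in every animal, by 1.45 times (Ctsa, stimulated animal 2) to 15.4 times (Ctsk, control animal 1), and for each of them the 4 lesion libraries lay above the 4 rostral ones. Cst3 was nearly level. Ctsk stood out. Its rostral values were 2.88 and 2.58 FPKM in the controls and 3.08 and 2.67 in the stimulated animals, and its lesion values were 44.5 and 32.0 in the controls and 21.6 and 11.4 in the stimulated animals. The lowest lesion library was thus several times the highest rostral library. The log2 fold change was 3.12 (SE 0.41, adjusted p = 0.000154), an 8.70-fold difference, and the ratio within an animal was 15.4 and 12.4 in the controls and 7.01 and 4.27 in the stimulated animals.

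Ctsd and Ctsb gave most of the added cathepsin RNA. Ctsd went from 211 and 182 FPKM in the rostral cord of the controls and 225 and 167 of the stimulated animals to 682 and 515 and to 698 and 347 in the lesion. The groups did not overlap, and the log2 fold change was 1.47 (SE 0.24, adjusted p = 0.000609). Ctsb went from 258 and 230 FPKM in the controls and 258 and 209 in the stimulated animals to 889 and 624 and to 734 and 391. This was a log2 fold change of 1.41 (SE 0.28, adjusted p = 0.00243). Ctsa rose from 48.1 ± 3.47 to 99.8 ± 28.2 FPKM (SD, n = 4), with a log2 fold change of 1.01 (adjusted p = 0.00386). Ctss rose from 198 ± 30.9 to 394 ± 119 FPKM (SD, n = 4), with a log2 fold change of 0.96 (adjusted p = 0.0279).

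The other 3 cathepsins lay higher in the lesion without passing the threshold. Ctsz measured 17.9 ± 3.44 FPKM rostrally and 50.9 ± 16.1 in the lesion (SD, n = 4), a log2 fold change of 1.47 (SE 0.57, adjusted p = 0.0736). Ctsc measured 4.39 ± 0.759 and 12.1 ± 4.56 FPKM, with a log2 fold change of 1.40 (SE 0.58, adjusted p = 0.0926). Ctsh measured 34.2 ± 5.18 and 65.6 ± 14.7 FPKM, with a log2 fold change of 0.92 (SE 0.37, adjusted p = 0.0845). Their standard errors take in all 5 regions, including the wide spread of region 2. Cst3 had 2220 and 1949 FPKM rostrally in the controls and 2448 and 1816 in the stimulated animals, against 2808 and 2198 and 3285 and 2158 in the lesion. The Cst3 groups overlapped, although the lesion was higher within each of the 4 animals, by 1.13 to 1.34 times, and its log2 fold change of 0.30 (SE 0.21) had an adjusted p of 0.340.

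In limma 5 of the 9 genes were therefore called higher in the lesion, where 6.78% of all genes tested were called higher, and 8 of 9 lay higher without overlap, where 13.0% of all genes did. The median log2 fold change of the 9 genes was 1.40, against -0.02 over all genes. The call count was 3 without control animal 1 (Ctsa and Ctss lost), 3 without control animal 2 (the same genes lost), 4 without stimulated animal 1 (Ctss lost) and 8 without stimulated animal 2 (Ctsc, Ctsh and Ctsz gained). In bulk tissue, more cells of a type and more RNA per cell cannot be told apart.

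Myeloid and phagocyte markers moved with the cathepsins. The 9 myeloid markers summed to 169 to 282 FPKM in region 3 and 426 to 961 in region 4, with 3 of 9 called higher. The 6 markers of lipid-laden phagocytes (Gpnmb, Lgals3, Spp1, Trem2, Apoe and Msr1) summed to 1407 to 1797 and 2483 to 5781 FPKM, with 5 of 6 called higher, and Msr1 at the 0.1 FPKM floor in 3 of the 20 libraries. Apoe weighs heavily in this sum, here and below. Its highest value in any library was 4803 FPKM, against 593 for Spp1, 434 for Gpnmb, 271 for Lgals3, 43.6 for Trem2 and 6.08 for Msr1. The 6 markers of monocytes and tissue macrophages summed to 35.6 to 43.0 and 90.2 to 253 FPKM, with 2 of 6 called higher, and among them the monocyte receptor Ccr2 was at the floor in 10 libraries and Ms4a7 in 5. The 7 markers of resident microglia summed to 65.0 to 88.8 and 103 to 160 FPKM, with 2 of 6 tested called higher and Siglech at the floor in 19 libraries. Fibroblast markers, which bear on a collagenase such as Ctsk, summed to 38.8 to 52.5 and 51.7 to 88.2 FPKM with 0 of 6 called, and Col1a2 was listed at the floor in all 20 libraries. The 5 markers listed for T cells and NK cells summed to 1.57 to 10.4 and 9.93 to 41.1 FPKM, with 1 of 4 tested called higher. Of these markers Cd3e, Cd3d and Nkg7 were at the floor in 15, 16 and 10 libraries. Their highest values in any library were 1.28, 1.07 and 0.515 FPKM, against 33.0 for Cd4 and 14.9 for Cd8a. The lesion sums of this list thus rest mainly on Cd4 and Cd8a. Astrocyte sums, 3010 to 3671 and 3630 to 4780 FPKM, had 0 of 8 markers called, and oligodendrocyte sums, 7403 to 9034 and 7692 to 8773, had 0 of 6. Endothelial sums were 38.6 to 48.6 and 39.0 to 45.3 FPKM with 0 of 3 called, and markers of choroid plexus and ependyma summed to at most 3.36 FPKM in both regions. Neuronal markers summed to 1222 to 1495 and 887 to 1158 FPKM, with 3 of 6 called lower. The part of these cell types in the cathepsin differences was not tested.

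The second comparison set the lesion against the cord caudal to it. Here Ctsk alone was called higher in the lesion. Its caudal values were 6.64 and 5.15 FPKM in the controls and 6.79 and 11.3 in the stimulated animals, all below the lowest lesion value, with a log2 fold change of 1.76 (SE 0.41, adjusted p = 0.0199). The within-animal ratio was 6.69 and 6.21 in the controls and 3.18 and 1.01 in the stimulated animals, so that in stimulated animal 2 the lesion and the caudal cord held the same level. The other 7 cathepsins had log2 fold changes of 0.19 to 0.61 with adjusted p of 0.149 to 0.767. Each of these 7 was higher in the lesion in 3 of 4 animals and lower in stimulated animal 2. Cst3 had a log2 fold change of -0.13 (adjusted p = 0.720). Of all genes 0.934% were called higher in the lesion and 1.84% lay higher without overlap. The sums of lipid-laden phagocyte markers, 2483 to 5781 FPKM in the lesion and 2243 to 2969 caudally, overlapped. So did those of monocyte and macrophage markers, 90.2 to 253 and 67.0 to 119, and none of these markers was called. Both overlaps came from stimulated animal 2, with phagocyte sums of 2483 and 2969 FPKM and monocyte and macrophage sums of 90.2 and 119. In the other 3 animals the phagocyte sums were 4544 to 5781 FPKM in the lesion and 2243 to 2289 caudally. Their monocyte and macrophage sums were 165 to 253 and 67.0 to 72.3 FPKM. Neuronal sums, 887 to 1158 FPKM in the lesion and 1499 to 1615 caudally, did not overlap. The neuronal markers Tubb3 (-0.76), Nefl (-0.75), Nefm (-0.80) and Rbfox3 (-0.42) were called lower in the lesion, with adjusted p of 0.00103 to 0.0448. The part of these cells in the Ctsk difference was not tested. The Ctsk call was lost without control animal 1 (adjusted p = 0.247), control animal 2 (0.149) or stimulated animal 1 (0.0582), and without stimulated animal 2 the calls were Ctsa, Ctsb, Ctsd, Ctsk and Ctsz, 5 in all.

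The caudal and the rostral cord, both away from the lesion centre, also differed in level. All 9 genes lay higher in region 5 than in region 3 without overlap, in 4 of 4 animals, where 20.5% of all genes did so. The size was moderate, with log2 fold changes of 0.43 for Cst3 to 1.36 for Ctsk and a median of 0.80, against 0.11 over all genes. Only Ctsd was called, where 2.77% of all genes were called higher. Its caudal values were 352 and 355 FPKM in the controls and 364 and 425 in the stimulated animals, and the log2 fold change was 0.93 (SE 0.24, adjusted p = 0.0347). That call was lost without control animal 1 (0.128), control animal 2 (0.150) or stimulated animal 1 (0.122), and without stimulated animal 2 the calls were Ctsa, Ctsb, Ctsd, Ctsk and Ctsz, 5 in all. Several marker sums also lay higher in region 5 than in region 3 without overlap. They were 365 to 481 against 169 to 282 FPKM for myeloid cells, 124 to 129 against 65.0 to 88.8 for resident microglia (1 of 6 called), 67.0 to 119 against 35.6 to 43.0 for monocytes and macrophages, 2243 to 2969 against 1407 to 1797 for lipid-laden phagocytes, 4255 to 4890 against 3010 to 3671 for astrocytes and 59.7 to 169 against 38.8 to 52.5 for fibroblasts. Neuronal sums, 1499 to 1615 against 1222 to 1495 FPKM, lay higher without overlap too. Of the neuronal markers, Nefm (0.78, adjusted p = 0.00142), Tubb3 (0.61, adjusted p = 0.00151) and Nefl (0.52, adjusted p = 0.0118) were called higher. Syt1 was called lower (-0.69, adjusted p = 0.0122). No marker of myeloid cells, monocytes and macrophages, lipid-laden phagocytes, astrocytes or fibroblasts was called. The part of all these cells in the differences was not tested.

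**Figure D2:**
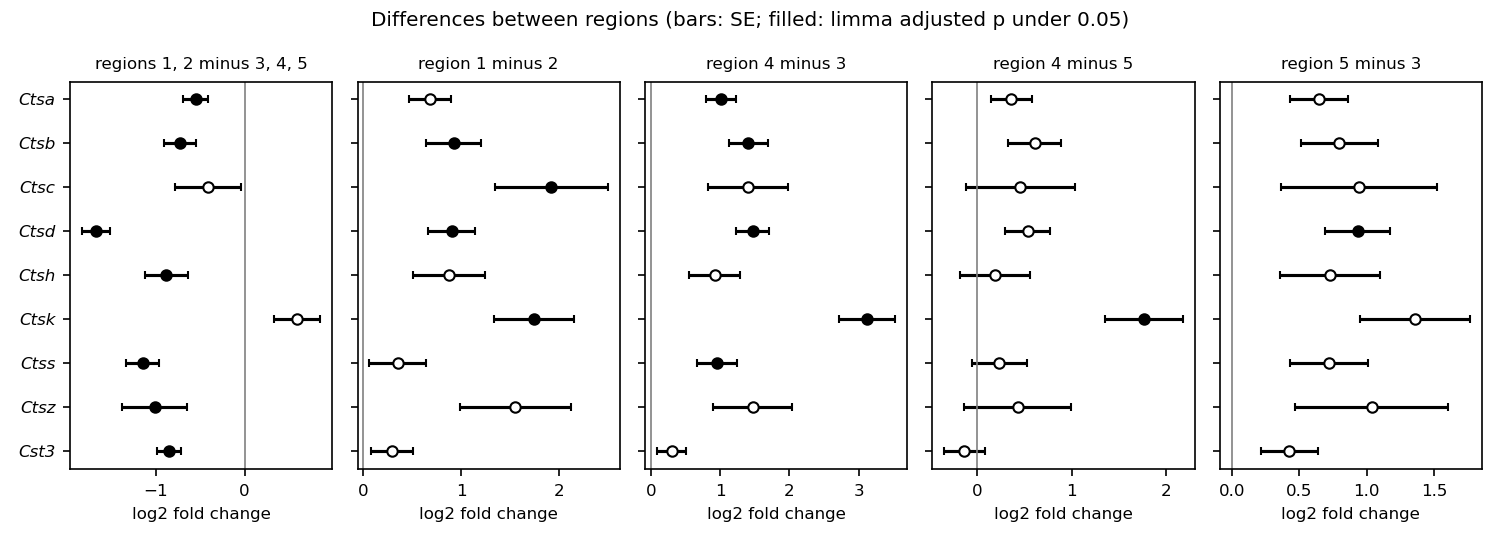
Log2 fold change of each gene for 5 contrasts between regions (x axis, a scale per panel), with bars of 1 SE from a limma model of all 20 libraries; filled circles passed an adjusted p of 0.05. In the region 4 minus 3 panel 5 circles are filled and Ctsk lies farthest right at 3.12, while in the first panel 7 filled circles lie left of 0.

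The balance between inhibitor RNA and peptidase RNA differed along the cord. The FPKM of Cst3 divided by the summed FPKM of the 6 cysteine cathepsins (Ctsb, Ctsc, Ctsh, Ctsk, Ctss and Ctsz) was 4.06 to 4.43 in the 4 rostral libraries, 3.13 to 3.49 in the 4 caudal ones and 1.77 to 2.82 in the 4 lesion ones. These 3 ranges did not overlap. In the white matter the ratio was 2.81 to 4.25 in region 2 and 1.33 to 3.76 in region 1, where its lowest value was that of stimulated animal 2. Per library, the summed FPKM of all 8 cathepsins ran from 660 to 830 in region 3, 1176 to 1488 in region 5 and 1178 to 2400 in region 4, and from 572 to 1134 in region 1 and 318 to 883 in region 2. Cst3 and the 8 cathepsins together made up 1.06% to 1.34% of a library's total FPKM in region 3 and 1.55% to 2.04% in region 4. No test was made on these sums and ratios, which follow from the same values.

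**Figure D3:**
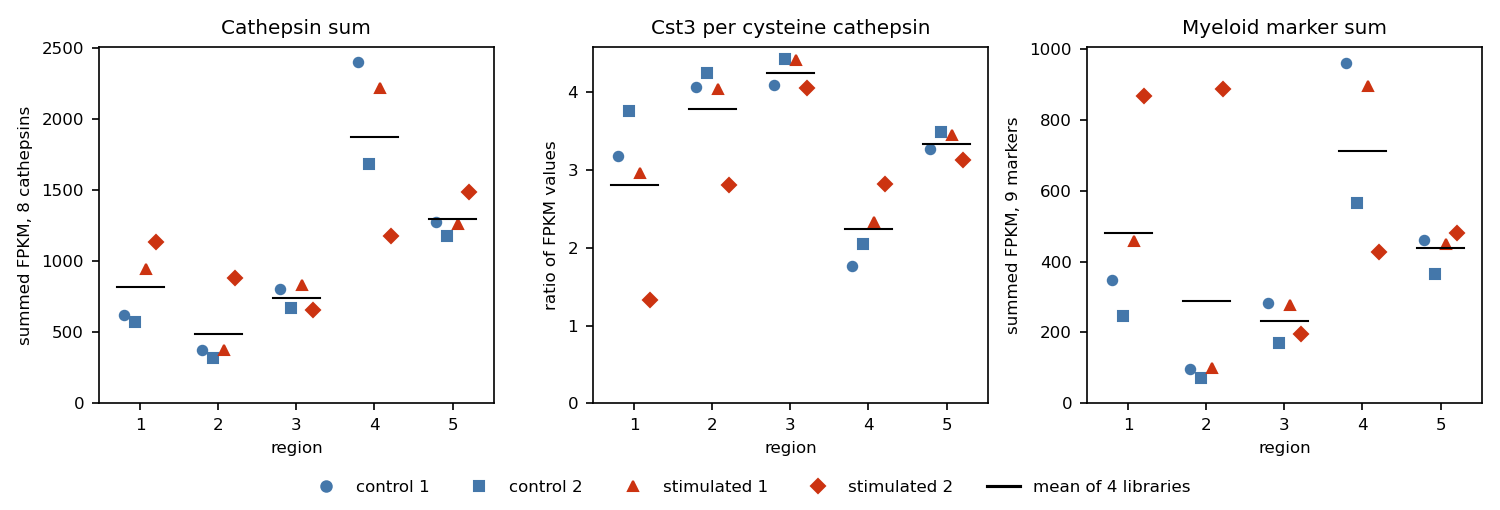
Per library and region (x axis), the summed FPKM of the 8 cathepsins, the ratio of Cst3 to the 6 cysteine cathepsins, and the summed FPKM of 9 myeloid markers, with lines at the mean of 4 libraries. In region 4 the cathepsin sum reaches 2400 and the ratio lies lowest in the cord, at 1.77 to 2.82, and the diamond of stimulated animal 2 has high myeloid sums of 866 and 887 in regions 1 and 2.

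The third comparison set both white matter regions against the 3 cord regions. Of the 9 genes 7 were called lower in white matter, where 47.1% of all genes were called lower and 25.0% higher. Ctsd differed most, with 80.4 ± 26.5 FPKM in region 2 and 150 ± 46.8 in region 1 against 196 ± 26.6, 560 ± 165 and 374 ± 34.5 in regions 3, 4 and 5 (SD, n = 4 each). Its log2 fold change was -1.68 (SE 0.16, adjusted p = 1.21e-08). The others called lower were Ctss (-1.15), Ctsz (-1.02), Ctsh (-0.88), Cst3 (-0.86), Ctsb (-0.73) and Ctsa (-0.55), with adjusted p from 1.72e-05 to 0.0185. Ctsc was not called (-0.41, adjusted p = 0.328), but without stimulated animal 2 it was (-1.11, adjusted p = 7.461e-05). The count lower was 8 without that animal, 5 without control animal 1 (Ctsh and Ctsz lost) and 6 without control animal 2 or stimulated animal 1 (Ctsz lost in each). Ctsk ran the other way without passing (0.59, adjusted p = 0.0512), with a mean of 25.8 FPKM in region 1 and 27.4 in the lesion. Without stimulated animal 2 the Ctsk means were 16.1 and 32.7 FPKM. No gene of the 9 was free of overlap in this contrast, where 16.8% of all genes lay lower and 10.3% higher without overlap. The median over all genes was -0.18 on the log2 scale as deposited, -0.10 after upper-quartile scaling and -0.04 after quantile normalization. The direction of Cst3 flipped to 0.42 (adjusted p = 0.00571) under quantile normalization, in which its place near the top of every library fixes its value, and the all-gene calls were 5054 higher and 6018 lower there, against 3808 and 7169 as deposited.

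The mix of cathepsins also differed between brain and cord. The share of Ctsd in the summed cathepsin FPKM lay between 13.5% and 21.4% over the brain libraries and between 25.3% and 31.5% over those of the cord, with no overlap. Ctsb made up 35.9% to 45.6% in white matter and 31.1% to 37.1% in cord. The share of Ctsk was 1.97% to 4.84% in region 1, 1.19% to 1.62% in region 2, 0.967% to 1.90% in region 4 and at most 0.760% in regions 3 and 5. The share of Ctsc was 0.862% to 2.82% in region 1, 0.409% to 1.57% in region 2 and at most 0.745% in the cord. Beside the oligodendrocyte sums given above, 6 of 6 resident microglial and 5 of 6 lipid-laden phagocyte markers were called lower in white matter, where 47.1% of all genes were. Astrocyte sums were lower there without overlap, 1620 to 2172 FPKM in region 1 and 1108 to 1926 in region 2 against 3010 to 4890 in the cord. The part of these cells in the differences between brain and cord was not tested.

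Within the white matter, the block under the electrodes was set against the opposite hemisphere, and 4 cathepsins were called higher under the electrodes. Ctsk was the one gene without overlap, where 4.40% of all genes lay higher without overlap. It measured 16.2 and 13.4 FPKM in region 1 of the controls and 18.6 and 54.9 of the stimulated animals, against 6.07 and 5.14 and 5.37 and 10.5 in region 2. The log2 fold change was 1.74 (SE 0.41, adjusted p = 0.0151). Ctsd (0.90, adjusted p = 0.0285), Ctsc (1.92, adjusted p = 0.0458) and Ctsb (0.92, adjusted p = 0.0499) were also called, which made 4 of 9, where 6.86% of all genes were called higher. In the controls alone, which had the implant and no current, the ratio of region 1 to region 2 was 1.44 and 2.01 for Ctsd, 4.26 and 3.79 for Ctsc, 1.68 and 1.85 for Ctsb and 3.50 and 3.56 for Ctsz. Ctsz (1.55, adjusted p = 0.0931), Ctsa (0.68, adjusted p = 0.0581), Ctsh (0.87, adjusted p = 0.145), Ctss (0.35, adjusted p = 0.493) and Cst3 (0.29, adjusted p = 0.432) were not called. In stimulated animal 2 Ctsh, Ctss and Cst3 were lower in region 1 than in region 2. All 4 calls were lost without control animal 1, control animal 2 or stimulated animal 1, and 7 genes, all cathepsins but Ctss, were called without stimulated animal 2. The myeloid marker sum was 247 to 866 FPKM in region 1 and 70.9 to 887 in region 2 with 0 of 9 called, and all 6 markers of lipid-laden phagocytes were called higher in region 1. Also called higher there were 5 of 6 fibroblast markers, with sums of 39.1 to 173 FPKM against at most 60.8, 5 of 6 oligodendrocyte markers and 2 of 8 astrocyte markers. So were 1 of 6 for monocytes and macrophages, 1 of 6 for resident microglia, 1 of 3 for endothelial cells and 1 of 4 for T cells and NK cells. The last was Cd8a. Of 6 neuronal markers 2 were called lower. The part of these cells in the differences was not tested.

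Ordering the 5 regions by mean FPKM gave region 4, then 5, for Ctsa, Ctsb, Ctsd, Ctsh, Ctss and Ctsz, with region 2 lowest in each. For Ctsk the order was 4, 1, 5, 2, 3, for Ctsc 1, 4, 5, 2, 3 and for Cst3 5, 4, 3, 1, 2. Without stimulated animal 2 the order of 3 genes changed. Region 4 then led for Ctsc, at 13.8 FPKM against 7.99 in region 1, and for Cst3, at 2763 FPKM against 2742 in region 5, and regions 1 and 3 changed places for Ctsh. Neighbours in these orders seldom passed the test. For Ctsa, Ctsb, Ctsh, Ctss, Ctsz and Cst3 none of the 4 neighbouring pairs did, with adjusted p of 0.0779 or more. For Ctsd the pairs 5 and 3 and 1 and 2 passed. For Ctsk region 1 exceeded region 5 (region 5 minus region 1 of -1.60, adjusted p = 0.00249, where 19.1% of all genes were called in that direction) and region 2 exceeded region 3 (region 3 minus region 2 of -1.21, adjusted p = 0.0165, with 19.8% of all genes). For Ctsc region 5 exceeded region 2 (1.53, adjusted p = 0.0245, with 49.0% of all genes). Regions at the ends of the orders differed more, and all 9 genes were called higher in region 4 than in region 2, by 1.06 for Cst3 to 2.80 for Ctsd, where 41.7% of all genes were.

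The fourth comparison asked whether cortical stimulation went with a change in each region. No member passed the threshold in any region, and the percentage of all genes called higher was 0.00% in regions 1 to 4 and 0.00657% in region 5, with 0.0131% lower there. With 2 animals in each group an exact permutation test could not have gone below p = 0.333. At an unadjusted p under 0.05 limma gave 4 members higher in region 1 (Ctsa, Ctsb, Ctsd and Ctsh), where 3.83% of all genes were, and 1 lower in region 4 (Ctsk), where 1.53% were. It gave 0 members in regions 2, 3 and 5, among 215, 522 and 546 such genes in either direction.

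In region 1, under the electrodes, both stimulated animals lay above both controls for all 8 cathepsins, where 21.2% of all genes did so. These 8 were read in the same libraries and are not independent of each other. Over the white matter libraries the median Pearson r of log2 FPKM between pairs of the 9 genes was 0.86. Ctsd measured 102 and 121 FPKM in the controls and 202 and 177 in the stimulated animals, which gave a log2 fold change of 0.77 (SE 0.17, unadjusted p = 0.0115 in limma). Ctsb measured 257 and 236 against 373 and 517 FPKM, a log2 fold change of 0.84 (SE 0.25). Ctsa measured 53.2 and 48.1 against 68.4 and 77.7 FPKM (0.53, SE 0.13), and Ctsh 30.7 and 25.8 against 40.4 and 55.5 (0.75, SE 0.21). In these 4 genes both stimulated animals lay above both controls, and Ctsa had the smallest difference. Ctss measured 134 and 106 against 208 and 157 FPKM (0.60, SE 0.23). Ctsz, Ctsc and Ctsk had larger and more scattered differences, of 1.17 (SE 0.49), 1.38 (SE 0.71) and 1.12 (SE 0.58). Stimulated animal 2 had 62.7, 31.9 and 54.9 FPKM where stimulated animal 1 had 25.5, 9.75 and 18.6. The controls had 19.4 and 16.2 FPKM for Ctsz, 9.30 and 4.92 for Ctsc and 16.2 and 13.4 for Ctsk. For Ctsc and Ctsk stimulated animal 1 thus lay little above control animal 1. The adjusted p of all 8 was 0.712 and that of Cst3, whose groups overlapped, 0.994. The myeloid marker sums were 348 and 247 FPKM in the controls and 458 and 866 in the stimulated animals, and those of lipid-laden phagocytes 1464 and 1776 against 2914 and 3194. The sums of fibroblast markers, 61.8 and 39.1 against 63.0 and 173 FPKM, and of astrocyte markers, 1678 and 1620 against 2172 and 1867, were also higher without overlap. So was the sum of the T and NK cell list, 13.2 and 5.56 against 14.1 and 47.7 FPKM, in which Cd4 and Cd8a reach by far the highest values. Neuronal sums, 1233 and 1238 against 1164 and 817 FPKM, were lower without overlap. None of these markers was called, and their part in the differences was not tested.

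In region 2 the stimulated mean was carried by 1 animal. Ctsd (0.50, SE 0.30), Ctss (0.92, SE 0.50) and Cst3 (0.52, SE 0.63) lay higher without overlap, 3 of 9 where 20.2% of all genes did. Ctsd was 70.5 and 60.2 FPKM in the controls and 71.5 and 119 in the stimulated animals, so that stimulated animal 1 was level with control 1. With stimulated animal 2 as the lone stimulated library, whose spread is then taken from the controls, Ctsz was the 1 member called (adjusted p = 0.0289), among 533 genes called higher, and without stimulated animal 2 the count of members was 0. The difference between the stimulation effects of regions 1 and 2, tested on the within-animal differences, was not called for any member, with adjusted p of 0.884 to 0.976. Over all genes 0 were called and 575 had an unadjusted p under 0.05. Ctsk was the one member under that value, with a difference of 0.69 on the log2 scale (SE 0.23, unadjusted p = 0.0388 in limma).

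In the cord no member was called, and no difference between the stimulation effects of regions 3, 4 and 5 was either (adjusted p of 0.929 to 1). In region 3 all 9 genes overlapped between the groups, with log2 fold changes of -0.07 to 0.15, and 5.14% of all genes lay higher without overlap. In the lesion Ctsk was lower in both stimulated animals, 21.6 and 11.4 FPKM against 44.5 and 32.0 in the controls, where 7.69% of all genes lay lower without overlap. The log2 fold change was -1.27 (SE 0.38, unadjusted p = 0.0283 in limma, adjusted p = 1). The other 8 genes overlapped there, and their values ranged from -0.51 for Ctsc to 0.10 for Cst3. Among the markers, the monocyte and macrophage sum was 253 and 188 FPKM in the controls and 165 and 90.2 in the stimulated animals, and the lipid-laden phagocyte sum 5781 and 4642 against 4544 and 2483. The fibroblast sum was 88.2 and 80.1 against 75.2 and 51.7 FPKM. All 3 sums were lower without overlap, and their part in the Ctsk values was not tested. In region 5 Ctsc (0.29, SE 0.11), Ctsd (0.16, SE 0.18), Ctsk (0.58, SE 0.31) and Cst3 (0.13, SE 0.70) lay higher without overlap, 4 of 9 where 18.5% of all genes did. Ctsd was 352 and 355 against 364 and 425 FPKM and Cst3 2762 and 2628 against 2837 and 3056, differences that were small beside the level. The fibroblast sum there was 66.8 and 59.7 against 104 and 169 FPKM, higher without overlap, the myeloid sum was 461 and 365 against 449 and 481, and the monocyte and macrophage sum was 72.3 and 67.0 against 67.1 and 119. No marker was called, and their part in these values was not tested. The SE of Cst3 takes in the prior variance of limma, which follows a trend with abundance.

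**Figure D4:**
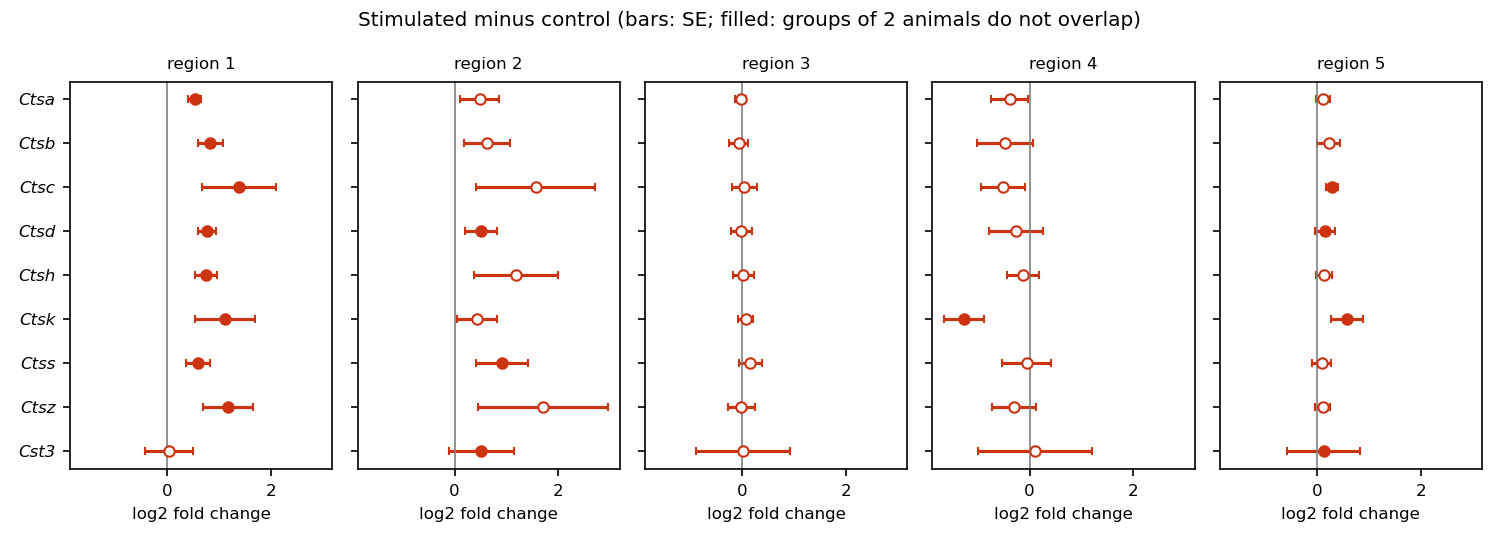
Log2 fold change, stimulated minus control, of each gene in the 5 regions (x axis), with bars of 1 SE from limma fits of 4 libraries; filled circles mark genes whose 2 stimulated animals both lay beyond the 2 controls. In region 1 all 8 cathepsins are filled and right of 0, and in region 4 Ctsk alone is filled, at -1.27; no circle passed an adjusted p of 0.05.

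Other genes of the lysosome were taken from lists. Among further cathepsins and lysosomal peptidases, 8 of 16 listed genes passed the expression filter, and 5 of these 8 were called higher in the lesion than rostrally and 0 lower, with a median log2 fold change of 0.99, where 6.78% of all genes were called higher and 12.8% lower. They were Lgmn, the asparaginyl endopeptidase that matures several cathepsins (1.23, adjusted p = 0.0210), the carboxypeptidase Scpep1 (1.16, adjusted p = 0.0118), the dipeptidyl peptidase Dpp7 (1.10, adjusted p = 0.00415), the cysteine cathepsin Ctsl (0.91, adjusted p = 0.0257) and the tripeptidyl peptidase Tpp1 (0.70, adjusted p = 0.0152). Ctsf (0.15, adjusted p = 0.371), Ctse (1.08, adjusted p = 0.0958) and the carboxypeptidase Prcp (0.66, adjusted p = 0.137) were not called. All 8 were called lower in white matter than in cord, where 47.1% of all genes were. The lymphocyte cathepsin Ctsw and the neutrophil cathepsin Ctsg did not reach 1 FPKM in any library.

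Inhibitors other than Cst3 were few. Of 20 listed cystatins and related inhibitors 5 passed the filter, 0 were called higher in the lesion and 1, Cst6, lower (-0.61, adjusted p = 0.0311). Of all genes 6.78% were called higher and 12.8% lower, and the counts among these 5 genes lie near those shares. At an unadjusted p under 0.05 limma gave 1 higher, where 5279 of all 15210 genes passed in either direction. The cytosolic inhibitor Cstb measured 58.7 FPKM rostrally and 85.0 in the lesion (0.52, adjusted p = 0.0560). Cst7, which in the brain marks activated microglia, averaged 1.44 FPKM in region 1 and at most 0.377 in the other regions and was higher in white matter (1.37, adjusted p = 0.0177), with 5 libraries at the floor. Serpinb6, an inhibitor of serine proteases, gave 0.15 (adjusted p = 0.687), and Stfa2, at the floor in 12 libraries, -0.05 (adjusted p = 0.986).

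The other parts of the lysosome were its hydrolases, its membrane and its acid pump, whose counts in this contrast stand beside the same 6.78% higher and 12.8% lower of all genes. Of 32 lysosomal hydrolases and activators 18 were called higher in the lesion than rostrally and 0 lower, with a median of 0.64, led by the phosphatase Acp5 (2.07), the cathepsin-processed growth factor Grn (1.74) and the glucuronidase Gusb (1.54). Of 17 lysosomal membrane proteins 4 were higher and 0 lower, with Cd68 (3.58), Laptm5 (1.39) and Cd63 (1.11) in front. Of 17 vacuolar ATPase subunits, which acidify the lysosome, 3 were higher and 2 lower, the latter near the share of all genes, with a median of -0.16. The higher ones were Atp6v0d2 (2.90), Tcirg1 (1.19) and Atp6v0e1 (0.48), of which Atp6v0d2 and Tcirg1 are known from osteoclasts and macrophages. Of 11 sorting receptors and tagging enzymes 2 were higher and 1 lower, namely Gnptab (0.31), Lrp1 (0.28) and Gga3 (-0.26). Of 6 transcription factors of lysosomal or myeloid genes 3 were higher, Tfec (2.84), Irf8 (1.82) and Mitf (0.33).

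In white matter against cord, where 25.0% of all genes were called higher and 47.1% lower, the counts higher and lower were 2 and 26 for the hydrolases, 1 and 12 for the membrane proteins, 9 and 4 for the vacuolar ATPase subunits, 3 and 6 for the sorting genes, 0 and 5 for the transcription factors and 2 and 2 for the other inhibitors.

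Known partners of 2 members were also read. Ctsc activates the granule proteases of leukocytes, of which 10 of 11 listed genes never reached 1 FPKM. The exception, Gzmm, gave -0.03 on the log2 scale between lesion and rostral cord. Ctss trims the invariant chain Cd74 during MHC class II loading. Of 8 listed genes of that pathway 5 passed the filter. Between lesion and rostral cord 0 were called in limma, also 0 at an unadjusted p under 0.05. Their log2 fold changes were 0.35 to 0.68, with a median of 0.60. Each SE, 1.00 to 1.16 against 0.29 for Ctss, exceeded the change itself, so these fits could not tell such changes from none.

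Over the 12 cord libraries, the levels of the 9 genes varied together, with Pearson r of log2 FPKM from 0.51 to 0.99 and a median of 0.96 over 36 pairs. Over the 8 white matter libraries r ran from 0.34 to 0.99 with a median of 0.86. These points share animals and regions, so the values are a description. Among the genes most like each member over the 12 cord libraries were Grn (r = 0.996) and Bin2 for Ctsd, Dpp7 (r = 0.9956), Cmtm3 and Hexa for Ctsb, and Skap2 (r = 0.9942) and Cd63 for Ctsa. For Ctsz they were Rnaset2 (r = 0.9967), Lpcat2 and Npc2, for Ctsh Gna15 (r = 0.9933) and Mob1a, and for Ctss Anxa3 (r = 0.9925), Ccdc93 and Gna15. For Ctsk they were Clec7a (r = 0.9941), Lyz2 and Cybb, for Ctsc Fam105a (r = 0.9927), Arpc1b and Prkcd, and for Cst3 Rps27 (r = 0.9746), Car14 and Cdk5rap3. The search ran over 14497 genes.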

How the data were processed

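Total RNA was depleted of ribosomal RNA and sequenced from 20 libraries, 1 per region and rat. The libraries were strand-specific. Per the labels' processing notes and the study's methods, the authors aligned reads to Rnor6 with TopHat 2.1.0 and estimated FPKM with Cufflinks 2.2.1, and they raised values under 0.1 to 0.1 before the table was deposited. The FPKM table holds no read counts and the libraries' read totals were not used here, so no counting error was computed. How reads shared between overlapping or near-identical genes were split is not given in the sources used here.

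Genes with at least 1 FPKM in any library were kept (15210 of 30443) and log2 FPKM was fitted with limma 3.58.1 (R 4.3.3) with an intensity trend. Contrasts between regions used the mean of each region in 1 model of all 20 libraries. Stimulation was fitted within each region on 4 libraries, and the difference between regions 1 and 2 on within-animal differences. All p-values are two-sided, and adjusted p-values are Benjamini-Hochberg over all 15210 genes with a threshold of 0.05. Fold changes are on the log2 scale with values floored at 0.1. No overlap means that every library of a group lay beyond every library of the other.

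Region contrasts pair by design, since the same animal gave every region. Deviations of the same animal correlated at 0.413 to 0.768 between regions 1 and 2, 0.136 to 0.255 between 3 and 4, -0.0883 to 0.105 between 4 and 5, and 0.0224 to 0.18 between 3 and 5. With an animal block in the model the counts of called members were those of the fit without it. Stimulated and control animals were different rats that share only a number.

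The fits were tested on simulated data first. The genes named are the 9 members, up to 3 called genes of each pathway list with the largest change between regions 4 and 3, every other cathepsin or cystatin kept, and for each member up to 3 genes most like it, of which some are not reported here. Gzmm and single marker genes, outside this rule, were named after their values were seen. Members and lists were chosen with earlier results of these data known. Promoters are from RefSeq (GRCr8), and only the 250 bases before the start were used. P-values measure only the spread between these animals and their dissections.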

Additional observations from a re-analysis of the deposited data

Results flagged for a closer look

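Among 45 groups of 4 libraries, 1 per gene and region, 7 held a library whose gap to its nearest neighbour exceeded Dixon's 95% critical value, as a share of the range, where chance gives about 1 in 20. All 7 were libraries of stimulated animal 2. In region 2 they were Ctsb at 317 FPKM, Ctsc at 13.8, Ctsh at 62.2, Ctss at 247, Ctsz at 51.6 and Cst3 at 1976 FPKM, and in region 1 Ctsk at 54.9 FPKM. Genes measured in 1 library are not independent of each other.

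Ctsk lay higher in both stimulated animals in regions 1 and 5 and lower in both in region 4. The stimulation effect in region 1 exceeded that in region 4 by 2.38 on the log2 scale (SE 0.87, adjusted p = 0.515 in limma on within-animal differences). The effect in region 4 minus that in region 5 was -1.85 (SE 0.56, adjusted p = 1). Neither difference passed the threshold, and unadjusted p-values were 0.0510 and 0.0234.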

How the results depend on the processing

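Across the alternatives, 723 values for single genes kept their direction and their side of the threshold, 40 fell short of it, 23 newly passed it and 16 changed direction. Cst3 changed direction under quantile normalization in white matter against cord (0.42), region 1 against 2 (-0.19) and region 4 against 3 (-0.11), was 0.00 for stimulation in region 5, and changed under upper-quartile scaling in region 4 against 5 (0.0273). For the stimulation effect of region 1 against 2, Ctsc was 0.0193 with log2(FPKM + 1) and 0.0218 under quantile normalization. Leaving out an animal there gave both directions for Ctsa (-0.32 to 0.41), Ctsb (-0.11 to 0.53), Ctsc (-0.80 to 0.44), Ctsd (-0.20 to 0.73), Ctsh (-1.26 to 0.39), Ctss (-1.17 to 0.52), Ctsz (-1.54 to 0.47) and Cst3 (-1.29 to 0.32). Counts of members called higher moved by over 1.5 times as follows. White matter against cord had 2 (Ctsk and Cst3) under quantile normalization, 1 (Ctsk) under upper-quartile scaling and 0 to 1 (Ctsk, without control animal 1) without an animal, against 0. Region 1 against 2 had 2 with log2(FPKM + 1), 2 without the trend, 0 with no filter on low values and 0 to 7 without an animal, against 4. Region 4 against 3 had 3 to 8 without an animal, against 5. Region 4 against 5 and region 5 against 3 each had 0 with no filter and 0 to 5 without an animal, against 1. Stimulation in region 2 had 0 to 1 without an animal, against 0. With no filter 30443 genes were fitted and adjusted over, which raised adjusted p (0.0519 for Ctsk in region 4 against 5). The causes of the other moves were not tested.

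Pairing libraries in a replicate block, by animal between regions and by number for stimulation, changed no call of a member, with 7 lower in white matter against cord, 4 higher in region 1 against 2, 5 in region 4 against 3, 1 in each of the other cord contrasts and 0 for stimulation. Same-numbered control and stimulated rats correlated at -0.213, -0.0974, -0.106, 0.321 and -0.164 in regions 1 to 5, and crossing the numbers, chosen after seeing the data, called 0 members. Over all genes the block moved stimulation calls in region 5 from 3 to 322 higher and 121 lower.

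Over all genes, calls as deposited and after upper-quartile scaling were 1043 higher and 267 lower against 1316 and 931 for region 1 against 2, 1031 and 1953 against 2116 and 2487 for region 4 against 3, 142 and 1074 against 328 and 299 for region 4 against 5, and 422 and 235 against 419 and 750 for region 5 against 3. The median of all genes moved from -0.14 to 0.02 for region 4 against 5 and from 0.11 to -0.01 for region 5 against 3. Without stimulated animal 2, 3291 genes were called higher in region 1 than in region 2, and without stimulated animal 1, 13. No read counts were used, so no counting limit was set for low values.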
